A study of Mus musculus with 7 samples.

Results

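The genes described here encode the respiratory complexes I, II and III and the ATP synthase of mitochondria, with their assembly factors. They were chosen by name from the 21121 genes in the files: every symbol that begins with Nduf, Uqcr or Atp5, and Sdha, Sdhb, Sdhc and Sdhd. One pseudogene, Atp5c1-ps, was left out, which gave 73 genes. Of these, 35 encode subunits of complex I (7 core and 28 accessory), 4 encode complex II, 8 complex III and 15 the ATP synthase (5 of its F1 head, 10 of its membrane part and stalk). The other 11 are 7 complex I assembly factors, Atp5s and Atp5sl, and Ndufa4 and Ndufa4l2, whose products belong to complex IV despite their names. The study followed lung epithelium of C57BL/6 mice at embryonic days 13.5, 15.5 and 18.5 (E13.5, E15.5, E18.5) and postnatal days 14 and 56 (P14, P56). Living Epcam-positive cells without CD31, CD45, Ter119 and CD146 were sorted at every stage, and their amplified polyadenylated RNA was read as tags near the 3' end of each transcript. E18.5 and P56 had 2 libraries each and the other stages had 1. The labels name no treatment or mutation. They do not say whether the libraries of a stage came from separate animals, so p-values measure only the spread between these samples. That spread comes from the E18.5 pair and the P56 pair alone, also in comparisons of stages with 1 library.

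Complexes I and II pass electrons from NADH and succinate to ubiquinone, and complex III passes them on to cytochrome c. Complexes I and III pump protons across the inner membrane, and the ATP synthase lets the protons flow back through a ring of c subunits in the membrane, which turns a shaft inside the F1 head where ATP is made. The core subunits of complex I carry the flavin and iron-sulfur centres or the proton channels, while the accessory subunits, many of them small, hold the complex together. In the lung, alveolar type 2 cells are rich in mitochondria and spend much ATP on making surfactant. The core subunits that mitochondrial DNA encodes are not among these genes, since the rule takes nuclear gene names.

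Depth was 2559927 to 3895740 reads per library, and 18902 to 41980 of those fell on the 73 genes. Of the members, 6 had a mean of at least 1000 reads per library, 20 had 100 to 1000, 38 had 10 to 100 and 9 had under 10. The 5 that were too low to test were Atp5e (ATP synthase epsilon), Ndufa1, Ndufa6, Ndufc1 and the assembly factor gene Ndufaf6, which left 68 tested among 12964 genes. All 7 lung epithelial markers examined had reads in every library, while mesenchymal markers (early on chiefly Vim) took 0.285% of all E13.5 reads, 0.153% in E15.5, then between 0.00933% and 0.0295%. Alveolar type 1 markers took 0.0251% and 0.121% at the early stages, 0.97% and 1.08% at E18.5, their highest, 0.756% at P14, then 0.381% and 0.417% at P56. Alveolar type 2 markers went from 0.0253% at E13.5 to 4.64% and 5.10% at P56, and markers of dividing cells from 0.133% at E13.5 to 0.00149% and 0.00217% at E18.5. Club cell markers took 0.0548% and 0.062% at E18.5 and 0.42% and 0.494% at P56. Ciliated cell markers took 0.0885% and 0.0916% at E18.5, 0.223% at P14, then 0.168% and 0.191% at P56. The part of these shifts in the results below was not tested, and in bulk RNA fewer cells of a type and less RNA per cell cannot be told apart. The libraries of E18.5 differed for these genes: replicate 2 lay below replicate 1 in 48 of 68 members (70.6%), against 48.7% of all genes tested, with a median log2 difference of -0.28 over members and 0.00 over all genes. At P56 replicate 2 lay below replicate 1 in 19 of 68 members, against 47.1% of all genes.

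The members together took the largest share of reads at E13.5. That share was 1.08% at E13.5 (95% exact binomial interval 1.07 to 1.09%) and 0.937% at E15.5 (0.925 to 0.949%). At E18.5 it was 0.722% and 0.703%, at P14 0.771%, and at P56 0.699% and 0.763%. These intervals cover counting error only. All 5 libraries from E18.5 onward thus lay below both earlier ones, and the later stages overlapped. The 2 stages with replicates differed by less than the spread of P56: the summed value, in scaled tag counts, was 7359 ± 116 (SD, n = 2) at E18.5 and 7554 ± 589 at P56.

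The summed values of the complexes were followed over the 5 stages, and differences between complexes were not tested. That of complex I was 2321 in the E13.5 library and 1949 in that of E15.5, then 1286 ± 299 (SD, n = 2) at E18.5, 2313 at P14 and 2437 ± 537 in the adult. It was lowest at E18.5, where both libraries (1497 and 1075) lay below the other 5. The ATP synthase went from 4491 and 3632 at the early stages to 3347 ± 60.0 at E18.5, 3231 at P14 and 2666 ± 54.6 at P56, with no low point at E18.5. Complex III went from 1644 and 1507 to 1479 ± 278, 1220 and 1102 ± 23.3. Complex II stayed between 983 and 1266 in every library.

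The sums of complexes II and III and the ATP synthase were each carried by 1 gene. A sum is thus no average of its complex, though in complex I the highest gene made up a smaller part. Sdhc made up 95.4% to 97.1% of complex II, Uqcrc1 76.3% to 89.3% of complex III, Atp5c1 65.1% to 74.2% of the ATP synthase and Ndufa2 23.2% to 48.6% of complex I. Without Uqcrc1 the ratio of P56 over E18.5 for complex III turned from 0.745 to 1.3. Without Ndufa2 the sum of complex I was 1026 and 825 at E18.5 and 1164 to 1448 in the other libraries. A 3' tag does not measure different genes equally, so these shares describe the files and not the amounts of RNA. The median over members treats genes alike. The scale was log2(value + 1), with the mean of each gene's 5 stage means taken off. On it the median of complex III was 0.40 at E13.5, -0.15 and -1.43 at E18.5 and 0.07 and 0.60 at P56. That of complex I was 0.26, -0.21 and -0.48, and -0.16 and 0.18 in the same libraries, and that of the ATP synthase 0.39, -0.05 and -0.42, and -0.23 and -0.24. The medians of complexes I and III and the ATP synthase were lowest in E18.5 replicate 2, as the plot of median levels by library shows.

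**Figure D1:**
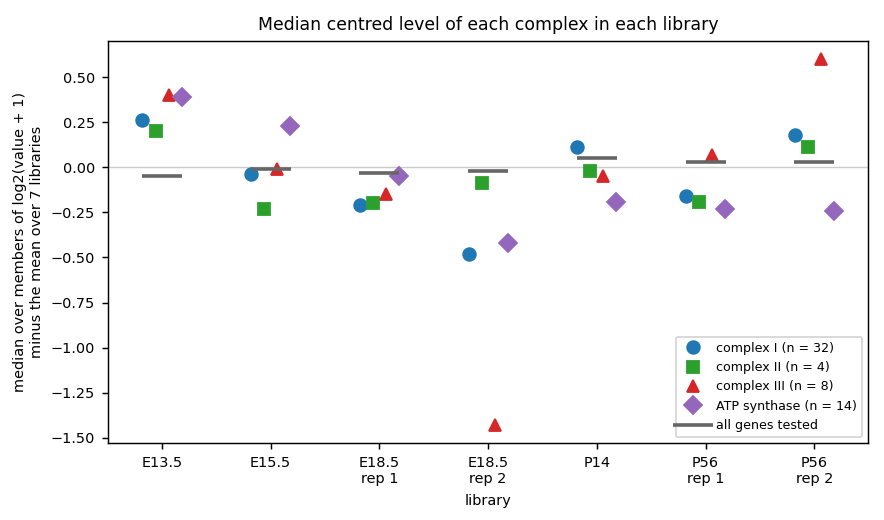
Median over the tested members of each complex of log2(value + 1) minus the mean of the gene's 5 stage means (y axis), in each library (x axis, in order of age). The y axis label calls this the mean over 7 libraries. Symbols stand for complexes, with the number of members in the legend, and bars for the median of all 12964 genes tested. Complex III is at -1.43 in E18.5 replicate 2 and at -0.15 in replicate 1, while the bars stay between -0.05 and 0.05.

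Across all stages few members passed the test. With limma's F test over the 5 stages, 8 of 68 members (11.8%) had an adjusted p under 0.05, against 30.3% of all genes tested. These were the complex I accessory genes Ndufa2, Ndufab1, Ndufb2, Ndufb3 and Ndufb7, the c subunit gene Atp5g1, Atp5s, and the assembly factor gene Ndufaf2. No member of complexes II and III and no core subunit gene of complex I was among them. The test with edgeR called 12 members (36.7% of all genes) and that with DESeq2 5 (22.5%). The calls lay elsewhere in part. By group, edgeR called 5 genes of complex I, 5 of the ATP synthase and 2 other members. DESeq2 called 0 genes of complex I, 4 of the ATP synthase and 1 of complex III.

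The last fetal stage was set against the mean of E13.5 and E15.5. The genes that limma called lower were 5 accessory subunits of complex I, 5 of the ATP synthase membrane part and stalk, and Ndufa4. Of 68 members, 11 fell (16.2%) and 0 rose, while 13.4% of all genes tested fell and 15.8% rose. The share that fell was thus near that of all genes, and the share that rose was further from it (edgeR called 10 lower and 0 higher, with 12.9% and 17.9% of all genes, and DESeq2 6 and 0, with 7.73% and 11.1%). At an unadjusted p under 0.05, 2 members were higher and 17 lower (21.7% and 20% of all genes). The fitted log2 change was negative in 56 of 68 members (82.4%), against 48.6% of all genes, and its median was -0.34 over members and 0.03 over all genes.

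By role, the 11 were 5 of 25 tested accessory subunits of complex I (Ndufa2, Ndufab1, Ndufb2, Ndufb7 and Ndufc2), 5 of 10 genes of the membrane part and stalk of the ATP synthase (Atp5g1, Atp5g2, Atp5j2, Atp5l and Atp5o) and Ndufa4. No gene was called among 7 core subunits of complex I, 4 of complex II, 8 of complex III, 4 of F1 and 6 assembly factors. Of the accessory subunits edgeR called 4 lower and DESeq2 2, and of the membrane part and stalk 5 and 4. The median log2 change was -0.68 for the accessory subunits and -0.31 for the core of complex I, and -0.94 for the membrane part and -0.19 for F1 of the ATP synthase. Complex III had a median of -0.94 with no call, and complex II one of -0.18. Whether the roles differ from each other was not tested. In 17 of 68 members (25%) both E18.5 libraries lay below the other 5, against 9.54% of all genes, and in 2 members they lay above, against 10.2%. Those below were 10 accessory subunits of complex I, 3 genes of the ATP synthase membrane part, Uqcr11 and Uqcrq of complex III, Sdhc and Ndufa4, and no core subunit or F1 gene.

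**Figure D2:**
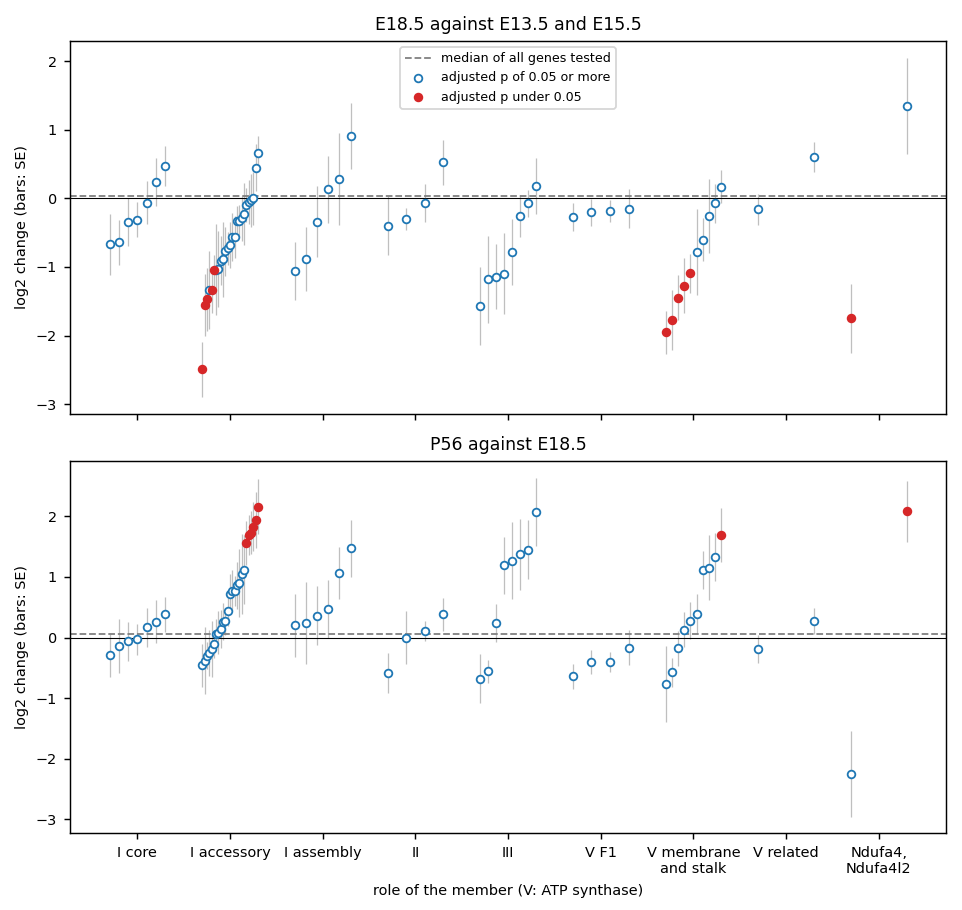
Log2 change of each tested member (points, bars are standard errors), by role (x axis, V stands for the ATP synthase), in E18.5 against the early stages (top) and P56 against E18.5 (bottom). Filled points passed an adjusted p under 0.05 and the dashed line is the median of all genes tested, 0.03 and 0.06. The filled points lie among the accessory subunits of complex I, the membrane part of the ATP synthase and Ndufa4, below the line in the top panel and above it in the bottom panel. The panels share the E18.5 libraries.

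P56, the adult stage, was set against E18.5, with 2 libraries in each group. The genes that limma called higher were 6 of 25 tested accessory subunits of complex I, Atp5j2 and Ndufa4. Of 68 members, 8 rose (11.8%) and 0 fell, while 8.07% of all genes rose and 6.15% fell (unadjusted p under 0.05: 16 members higher, against 16.8% of all genes, and 5 lower, against 12.3%). With edgeR 10 rose and 2 fell (8.28% and 7.89% of all genes), with Atp5b and Ndufa4l2 the lower pair, and with DESeq2 5 rose and 2, Atp5b and Uqcrc1, fell (4.88% and 4.82%). The 8 were Ndufa2, Ndufa3, Ndufb2, Ndufb3, Ndufb7 and Ndufc2 of complex I, Atp5j2 of the ATP synthase and Ndufa4. Of the 25 accessory subunits edgeR also called 6 higher, but DESeq2 only 1. The median log2 change was 0.72 over 25 accessory subunits, 1.23 over complex III, -0.03 over the complex I core and -0.40 over F1, where all 4 genes had negative values. In complex III limma called no gene, edgeR called Uqcr11 higher, and DESeq2 called 1 gene higher and Uqcrc1 lower. Over all members the median was 0.26, against 0.06 over all genes, and it was 0.08 with the trend on transcript length removed and 0.51 without P56 replicate 1. This comparison and the one before share the E18.5 libraries, so low values there enter both.

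Each of the 4 replicates was left out in turn. On the 1 residual degree of freedom that was left, limma called 0 of all genes tested, so its 0 members says nothing about them. The edgeR fits had the same 1 residual degree of freedom, with the spread taken from 1 pair of libraries, so their counts are a description. They moved over members and over all genes. The rises at P56 numbered 16 without E18.5 replicate 1 (1474 over all genes), 9 without E18.5 replicate 2 (1154), 6 without P56 replicate 1 (611) and 2 without P56 replicate 2 (636). The falls at E18.5 numbered 18, 8, 10 and 10 in that order, beside 1965, 1718, 1469 and 1669 over all genes. The median log2 change of complex III at P56 was 0.32 without E18.5 replicate 2 and 1.93 without replicate 1. Without E18.5 replicate 2, the edgeR log2 change at P56 was 1.18 for Ndufa2, 0.91 for Ndufa3, 1.24 for Uqcr11 and 1.27 for Ndufa4. It was -0.71 for Atp5b, -1.54 for Atp5g3 and -7.79 for Ndufa4l2, which had 0 reads at P56.

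In the other 3 comparisons limma called 0 members. The stages E13.5, E15.5 and P14 had no replicate, so their p-values use the spread within E18.5 and P56. For E15.5 against E13.5 this stood beside 2.36% of all genes called higher and 0.208% lower. By unadjusted p under 0.05, 2 members were higher (9.54% of all genes) and 1 was lower (4.37%). Neither edgeR (3.37% of all genes higher, 0.478% lower) nor DESeq2 (2.62% and 0.309%) called a member. The log2 change was negative in 49 of 68 members (72.1%), against 48.0% of all genes. Its median was -0.24 over members and 0.0 over all genes.

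For P14 against E18.5 limma called 1.87% of all genes higher and 1.24% lower. By unadjusted p 12 members were higher (11% of all genes) and 1 lower (7.44%). The members called higher were Ndufa2 and Ndufb7 in edgeR (3.16% of all genes, with 2.13% lower) and Atp5l in DESeq2 (1.97% and 1.66%), and the median log2 change was 0.17. For P56 against P14 limma called 0.123% of all genes higher and 0.694% lower, edgeR 0.571% and 1.49%, and DESeq2 0.501% and 1.04%, with 0 members in each. By unadjusted p 1 member was higher (4.99% of all genes) and 0 lower (5.35%), and the median was 0.04.

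The promoters of genes for the respiratory chain are known to hold sites of NRF1, GABP, YY1 and ERR alpha, factors that drive the nuclear genes of mitochondria. Windows of RefSeq (GRCm38.p6) from 250 bases before to 50 after the start were at hand for 62 of the 73 members. The NRF1 motif, the 10-letter palindrome in capitals in the lines that follow, was in the windows of 6 members (9.68%), against 1.07% of 27025 genes. The YY1 letters AAGATGGC were in 11 (17.7%, against 3.19%), the GABP letters CCGGAAGT in 4 (6.45%, against 4.31%) and the ERR alpha letters TCAAGGTCA in 2 (3.23%, against 0.466%), each searched on both strands. The windows of 10 members called lower at E18.5 held NRF1 letters in 1 and YY1 letters in 1, those of the other 48 tested members in 5 and 9. A match is a description of the sequence, not a site in use. The 6 NRF1 matches are given here with 10 bases on either side, the motif in capitals, 5′ to 3′ on the gene's strand, to let the flanks be compared.
Atp5g2: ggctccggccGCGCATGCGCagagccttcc
Atp5k: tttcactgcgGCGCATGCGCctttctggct
Ndufa11: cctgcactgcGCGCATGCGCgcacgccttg
Ndufaf4: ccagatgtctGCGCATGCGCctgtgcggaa
Ndufaf5: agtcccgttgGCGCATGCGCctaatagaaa
Uqcrc1: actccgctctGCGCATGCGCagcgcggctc

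Of these, Atp5g2 fell at E18.5 and Uqcrc1 was not called, and their whole windows are given to set the motif in place, again in capitals. The motif begins at -42 from the start in Atp5g2 and at 30 in Uqcrc1. That of Atp5g2 is on the minus strand at chr15:102670998-102671297 and that of Uqcrc1 on the plus strand at chr9:108936398-108936697.
Atp5g2: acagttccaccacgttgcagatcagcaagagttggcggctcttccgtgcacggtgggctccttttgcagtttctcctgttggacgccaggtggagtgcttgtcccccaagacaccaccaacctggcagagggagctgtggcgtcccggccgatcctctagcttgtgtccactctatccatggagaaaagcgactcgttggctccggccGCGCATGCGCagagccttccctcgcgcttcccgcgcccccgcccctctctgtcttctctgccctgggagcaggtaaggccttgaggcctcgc
Uqcrc1: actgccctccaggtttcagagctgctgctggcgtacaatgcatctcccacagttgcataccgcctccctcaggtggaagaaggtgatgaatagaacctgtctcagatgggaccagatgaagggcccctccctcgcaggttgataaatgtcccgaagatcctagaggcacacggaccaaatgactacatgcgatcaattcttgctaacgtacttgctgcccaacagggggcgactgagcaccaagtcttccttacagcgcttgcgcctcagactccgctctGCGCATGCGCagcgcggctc

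Within the core of complex I, Ndufs3, a subunit of the matrix arm near the ubiquinone site, had 37.6 in the E13.5 library, 30.1 in E15.5, 25.4 and 28.6 in the E18.5 pair, 23.4 in P14, and 25.6 and 27.2 in the P56 pair. The E18.5 and P56 libraries overlapped, and E13.5 was the highest. The log2 change was -0.03 (SE 0.252, limma adjusted p = 0.959) for P56 against E18.5 and -0.31 (SE 0.252, adjusted p = 0.391) for E18.5 against early. Among other core genes, Ndufs1, a large iron-sulfur subunit, had a log2 change of -0.67 at E18.5 and -0.14 at P56, and Ndufs7, another iron-sulfur subunit, 0.47 and 0.38, with neither called.

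Ndufa2, an accessory subunit of the matrix arm, had 974 in the E13.5 library, 778 in E15.5, 472 and 249 in the E18.5 pair, 988 in P14, and 894 and 1369 in the P56 pair. Both E18.5 libraries lay below all others, and replicate 2 lay below replicate 1. The log2 change was -1.34 (SE 0.331, adjusted p = 0.0219) at E18.5 against the early stages and 1.69 (SE 0.331, adjusted p = 0.0165) at P56 against E18.5, a 3.14-fold ratio of means.

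Ndufa3, a small subunit of the membrane arm (chromosome 7, 3617373 to 3620327), had 294 and 313 at the early stages, 242 and 107 at E18.5, 456 at P14, then 436 and 523 at P56. The 3 postnatal libraries lay above all fetal ones. It rose 2.75-fold from E18.5 to P56 (log2 change 1.56, SE 0.357, adjusted p = 0.0282), while its value of -0.91 at E18.5 against the early stages did not pass (adjusted p = 0.0964). Ndufb7, a membrane arm subunit with a pair of cysteine motifs (chromosome 8, 83566671 to 83571626), rested on few reads at E18.5, 8 and 5, against 93 at E13.5 and 42 at E15.5. Its values were 22, 15.1, 3.08 and 1.88, then 14.6 at P14, then 8.54 and 14.6 at P56. It fell by 2.49 on the log2 scale at E18.5 (SE 0.4, adjusted p = 0.00412) and rose by 1.83 at P56 (SE 0.4, adjusted p = 0.0238).

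Other accessory subunits varied in course. Ndufab1, the mitochondrial acyl carrier protein, which also serves fatty acid and lipoate synthesis, had 84.4 and 71.8 at the early stages and 36.5 to 46.0 in the 5 later libraries. It fell by 1.05 on the log2 scale at E18.5 (SE 0.221, adjusted p = 0.0122) and was not called higher at P56 (0.27, adjusted p = 0.470). The membrane arm subunit gene Ndufb10 had 28.8 and 40.2 at the early stages and 47.5 to 62.4 later. It had the highest value among the accessory subunits at E18.5, 0.66 (SE 0.246, adjusted p = 0.0831). Ndufb2 and Ndufc2 had 3 and 3 reads and 2 and 6 reads at E18.5, so their log2 rises at P56 of 2.16 and 1.94 rest on counts near the floor. Ndufb3 rose from 5.78 and 4.14 at E18.5 to 15.4 and 22.3 at P56 (log2 change 1.73, adjusted p = 0.0204). The accessory subunit genes called in neither comparison had log2 changes from -1.34 (Ndufa12) to 0.66 (Ndufb10) at E18.5, and from -0.46 (Ndufa8) to 1.12 (Ndufa12) at P56. Among them Ndufa10 had 112 to 246 and Ndufb5 119 to 193 over the 7 libraries, with both E18.5 values inside those ranges.

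Assembly factors, which build complex I and leave it again, had low counts and no call in any single comparison. Ndufaf5, which modifies a core subunit during assembly, had 10.4 and 10.8 at the early stages, 5.01 and 4.14 at E18.5, 4.95 at P14, then 15.1 and 7.45 at P56, and its log2 change at P56 was 1.07 (SE 0.428, adjusted p = 0.148). Ndufaf2, a paralog of an accessory subunit, had 8.51 at E13.5 and 0.359 at E15.5, a single library each, and 0.754 to 4.53 later (any stage, adjusted p = 0.038).

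In complex II limma called no gene in any of the comparisons. Sdhc, one of the membrane anchors of the complex (chromosome 1, 171127165 to 171150603), had 1179 and 1229 at the early stages, 939 and 1023 at E18.5, 1094 at P14, then 1058 and 1052 at P56. Both E18.5 libraries were the lowest of the 7, yet the difference from P56 was small (log2 change 0.11, SE 0.162, adjusted p = 0.721). Sdha, the flavoprotein that oxidises succinate, had 21.0 and 18.7, then 17.3 and 20.3, then 24.8, and 26.5 and 23.0 at P56 (log2 change 0.38, SE 0.273, adjusted p = 0.416). The iron-sulfur subunit gene Sdhb had 6.54 to 19.6 over the 7 libraries and the other anchor gene Sdhd 8.25 to 16.2. Sdhd had a log2 change of 0.53 at E18.5 and -0.59 at P56, and neither was called (adjusted p = 0.266 and 0.285).

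Complex III holds large and small subunits, and the difference between them was not tested. Uqcrc1, a large core protein facing the matrix (chromosome 9, 108936633 to 108949623), had 1384 and 1329 at the early stages, 1115 and 1496 at E18.5, 1013 at P14, then 900 and 853 at P56. The postnatal libraries were the 3 lowest. The log2 change at P56 was -0.56 (SE 0.194, limma adjusted p = 0.104; edgeR adjusted p = 0.0511). Uqcr11, one of the smallest subunits (chromosome 10, 80402997 to 80406830), had 25.5 and 20.1 at the early stages, 13.5 and 3.39 at E18.5, 27.2 at P14, then 24.2 and 43.7 at P56. Both E18.5 libraries were below the other 5 and far apart from each other, the lower of them with 9 reads. The log2 change at P56 was 2.07 (SE 0.568, limma adjusted p = 0.0521; edgeR adjusted p = 0.0272). The small subunit genes Uqcr10, Uqcrb, Uqcrh and Uqcrq had 2.64 to 8.67 in E18.5 replicate 2 and 7.70 to 35.8 in replicate 1, then 12 to 36.7 in P56 replicate 1 and 10.7 to 62.2 in replicate 2. For Uqcr10 the stages overlapped, with 17.7 in E18.5 replicate 1 and 16.8 in P56 replicate 1. Uqcrc2, the other large core protein gene, had 123 in E18.5 replicate 2 and 46.0 to 81.5 elsewhere, and the Rieske protein gene Uqcrfs1 had 32.2 to 56.0 over all libraries.

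**Figure D3:**
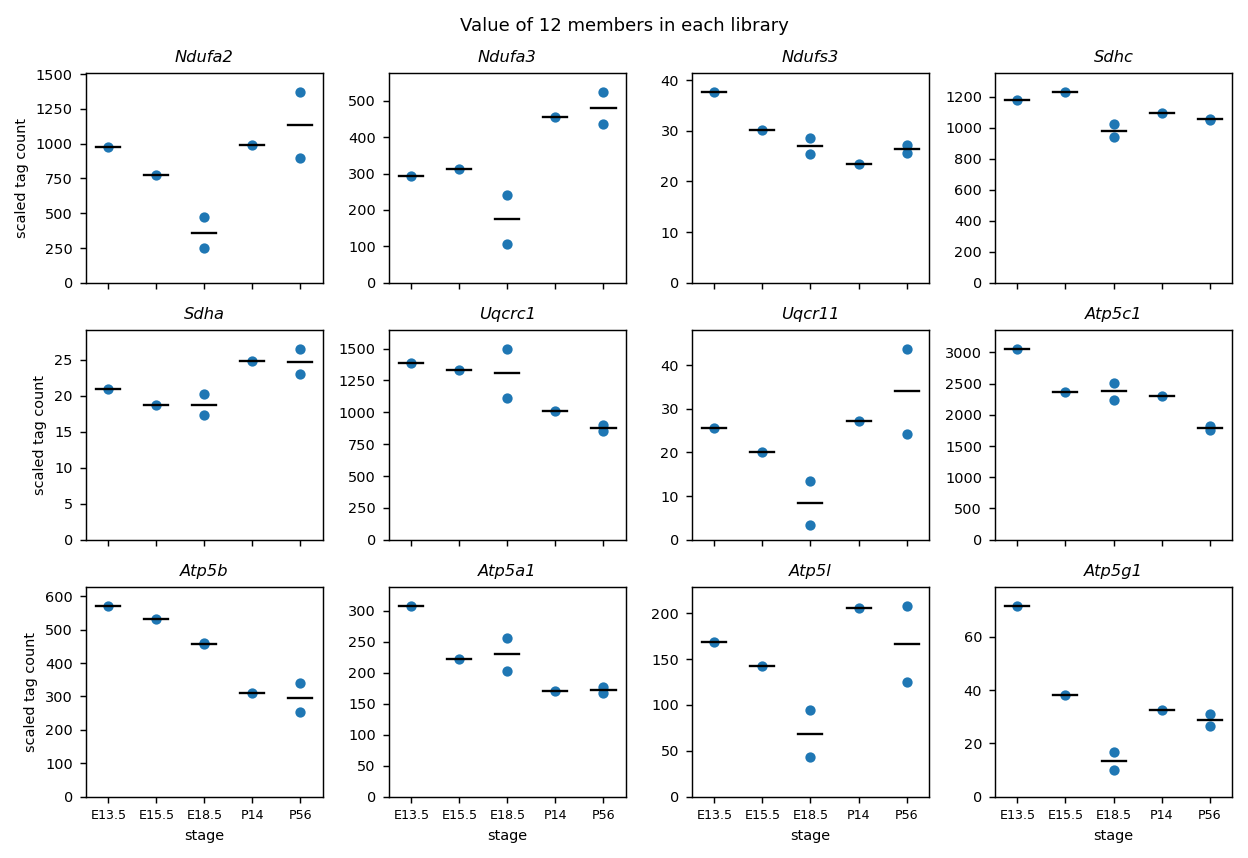
Scaled tag counts (y axis, from 0) of 12 members in each library by stage (x axis). Points are libraries and bars stage means. Ndufa2, Ndufa3, Uqcr11, Atp5l and Atp5g1 are lowest in both E18.5 libraries, while Atp5b, Atp5a1 and Uqcrc1 have their lowest libraries after birth.

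Of the F1 head of the ATP synthase, Atp5c1, the gamma subunit that forms the rotating shaft (chromosome 2, 10056016 to 10080510), had 3052 and 2365 at the early stages, 2236 and 2515 at E18.5, 2303 at P14, then 1760 and 1827 at P56. The P56 libraries were the lowest pair and E13.5 the highest library. The log2 change at P56 against E18.5 was -0.40 (SE 0.161, adjusted p = 0.147). Atp5c1-ps, listed at 0.972 to 4.49, could share reads with Atp5c1. Atp5b, the catalytic beta subunit (chromosome 10, 128083273 to 128090391), had 571 and 533, then 459 and 457, then 311, and 340 and 253 at P56. Its stages before and after birth did not overlap. The log2 change at P56 was -0.64 (SE 0.202, limma adjusted p = 0.0789; edgeR adjusted p = 0.0432). Atp5a1, the alpha subunit that alternates with beta around the head, had 308 and 223, then 257 and 203, then 170, and 168 and 177 at P56 (log2 change -0.40, SE 0.198, adjusted p = 0.230). The delta subunit gene Atp5d had 24.1 to 35.4 over the libraries.

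In the membrane part, the c subunit is encoded by Atp5g1, Atp5g2 and Atp5g3, whose mature proteins are the same, and the counting could split reads between such copies. Atp5g1 (chromosome 11, 96068852 to 96075670) had 71.6 and 38.0 at the early stages, 16.6 and 9.80 at E18.5, 32.5 at P14, then 31.0 and 26.6 at P56. Both E18.5 libraries were the lowest, and Atp5g1 fell by 1.95 on the log2 scale (SE 0.313, adjusted p = 0.0041), while its value of 1.11 at P56 did not pass (adjusted p = 0.0572). Atp5g2 had 76.3 and 53.8, then 29.3 and 17.7, then 46.5, and 24.8 and 36.6 at P56, and fell by 1.45 at E18.5 (SE 0.328, adjusted p = 0.0157). At P56 its libraries overlapped those of E18.5. Its promoter window is one of those printed above. Atp5g3 had no steady order, with 32.6 and 77.5 at the early stages, 52.0 and 15.8 at E18.5, 14.9 at P14, then 27.6 and 9.72 at P56, and was not called.

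Atp5l, subunit g, which helps to join ATP synthase dimers (chromosome 9, 44912557 to 44920742), had 169 and 143 at the early stages, 94.7 and 43.0 at E18.5, 206 at P14, then 125 and 208 at P56. It fell by 1.27 at E18.5 (SE 0.396, limma adjusted p = 0.0484) and its value of 1.32 at P56 was called by edgeR (adjusted p = 0.0408) and not by limma (adjusted p = 0.0684). Atp5j2, subunit f, had 17.3 and 6.78 at E18.5 and 30.2 to 47.0 in the other libraries, and was called in both directions (-1.77, adjusted p = 0.0225, and 1.69, adjusted p = 0.0436). Atp5o, the stalk subunit that ties the head to the stator, went from 43.2 and 34.8 to 20.8 and 15.1 at E18.5 and stayed at 18.8 to 20.2 after birth. It fell by 1.09 (adjusted p = 0.0261) and was not called at P56 (0.13, adjusted p = 0.813). The peripheral stalk genes Atp5f1, Atp5h and Atp5j had log2 changes of 0.17, -0.07 and -0.60 at E18.5, and Atp5k, subunit e, had 1 to 13 reads per library.

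Of the other members, Ndufa4, a subunit of complex IV, had 20.1 and 25.1 at the early stages, 11.2 and 3.01 at E18.5, 17.6 at P14, then 28.7 and 28.5 at P56. It fell by 1.75 at E18.5 (SE 0.504, adjusted p = 0.0377) and rose by 2.08 at P56 (SE 0.504, adjusted p = 0.0342). Its paralog Ndufa4l2, known as a gene induced by hypoxia, had 7 reads at E15.5, 21 and 4 at E18.5, and 0 reads in the E13.5, P14 and P56 libraries. Reads were found at E15.5 and E18.5 only, and the E18.5 replicates were far apart (limma adjusted p = 0.077 for P56 against E18.5, edgeR adjusted p = 0.042). Where it had 0 reads the floor of 3 reads is worth 0.709 to 0.972 units. Atp5s, a factor related to the ATP synthase, had 25.5 in the E13.5 library, 47.7 in that of E15.5 and 52.7 to 66.1 in later ones (any stage, adjusted p = 0.0497), and Atp5sl, a complex I assembly factor despite its name, 101 to 149. Of the genes given here with values, those outside the naming rule, such as Ndufb7, Ndufab1, Ndufb2, Ndufb3, Ndufc2, Ndufb10, Atp5j2, Atp5o, Uqcrc2 and Ndufaf2, were chosen after their values were seen.

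Transcript length and coding length moved with the pattern at E18.5, in these genes and in short transcripts of other genes. The 11 members called lower at E18.5 had a median coding length of 360 bases and the 57 tested members that were not called 528, against 1416 for all genes. The core subunits of complex I have a median of 789 and the F1 genes 894, against 420 for the accessory subunits and 416 for the membrane part of the ATP synthase. Across the 68 members Spearman's rho between coding length and the log2 change was 0.57 in E18.5 against early, -0.61 for P56 against E18.5 and 0.63 for E18.5 replicate 2 minus replicate 1. Across 11450 genes with a length the same values were 0.08, -0.11 and 0.09. With transcript length in place of coding length, rho was weaker over the members, at 0.36, -0.43 and 0.44. Over the 11450 genes it was then 0.07, -0.1 and 0.06. Genes are not independent replicates, and these points share libraries, so the values are a description.

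The tested genes that are no members were grouped by length and not by function, so other mitochondrial genes are included. Those with transcripts of up to 600 bases, 105 in number, had a median log2 change of -1.03 at E18.5 against the early stages. It was 0.99 at P56 against E18.5 and -0.72 between the E18.5 replicates. The 11 members of that length had -0.91, 1.32 and -1.12. For transcripts over 2000 bases the other genes had 0.07, 0.04 and 0.02. By coding length the members stood further from other genes: up to 300 coding bases, 10 members had -1.16 and 1.47 in the main comparisons and 215 other genes -0.47 and 0.51. Of the members called lower, 3 have long annotated transcripts with short coding parts: Atp5g1 (4715 bases), Ndufb2 (4371) and Ndufab1 (3479). With each library's trend on transcript length taken off, the falls at E18.5 were 7 with 1 rise, Ndufb10 (1880 and 1751 over the 11450 genes with a length). The rises at P56 were then 6 with 2 falls, Atp5c1 and Ndufa4l2 (947 and 871 over the same genes). The part of transcript length in the calls was not tested beyond this.

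**Figure D4:**
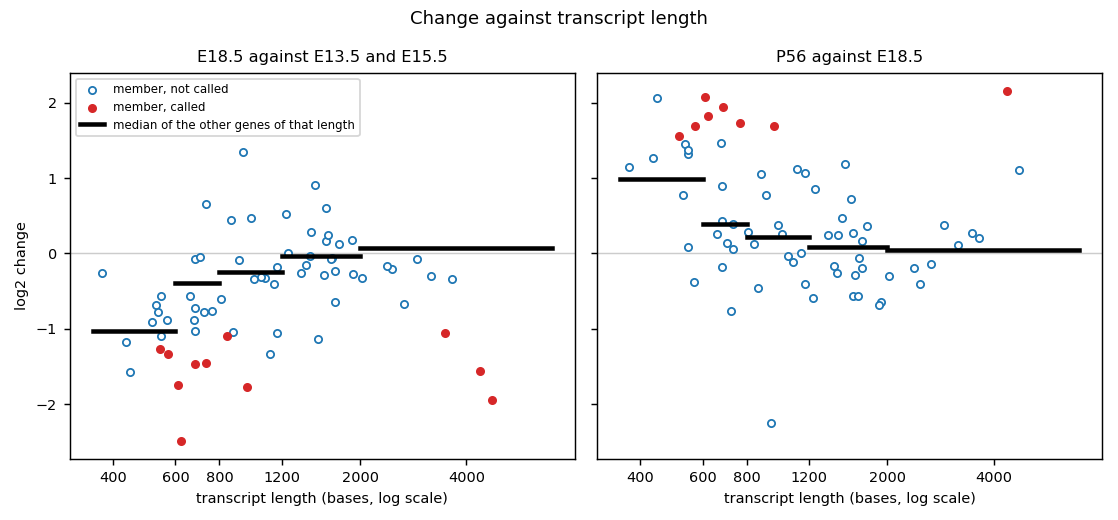
Log2 change of each tested member (points, filled where called) against transcript length in bases (x axis, log scale), for E18.5 against the early stages (left) and P56 against E18.5 (right). Thick lines are the medians of all other genes in 5 classes of length. In the shortest class the lines lie at -1.03 and 0.99 and the members have medians of -0.91 and 1.32.

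Other mitochondrial genes were looked at as lists beside the members. Of 13 tested complex IV subunits, 1 rose and 2 fell at E18.5 and 3 rose at P56. These were the heart and muscle form Cox6a2, from 8.86 and 2.26 at E18.5 to 906 and 1254 at P56, Cox8a, from 37.0 and 24.5 to 75.4 and 107, and Cox6c, from 19.6 and 12.8 to 41.0 and 62.2. Of 73 mitochondrial ribosomal proteins, 17 fell and 0 rose at E18.5, with a median log2 change of -0.79, and 2 rose and 0 fell at P56. Of 20 import genes 4 fell and 0 rose at E18.5 (median -0.82) and 1 rose and 1 fell at P56. Of 16 genes of the citrate cycle and pyruvate dehydrogenase, 1 rose and 1 fell at E18.5 (median 0.16), among them Ogdh, which rose from 232 and 306 at the early stages to 513 and 722. At P56 0 of these rose and 1 fell, Dlst (log2 change -0.96, adjusted p = 0.0149), with a median of -0.16. Of 15 other assembly factors 2 fell at E18.5, and 1, the complex II factor Sdhaf2, rose at P56 (log2 change 1.67, adjusted p = 0.0272). Sdhaf2 had only 6 and 8 reads at E18.5. Of 16 biogenesis factors 1 rose at E18.5, Polg, and 2 fell, Tfam and Nrf1 (the latter from 85.5 and 54.5 to 42.4 and 30.1, adjusted p = 0.0405). Tfam had 34 and 13 reads at the early stages and 5 and 2 at E18.5, so its fall rests on counts near the floor. At P56 Polg and Peo1 fell. The lists of 7 other electron carriers and 6 channels had 0 rises and, in order, 0 and 1 falls at E18.5, and 1 rise (Sqrdl) and 0 rises at P56. The 9 chaperones and prohibitins had 3 falls at E18.5, and 1 rise and 1 fall at P56. Beside the E18.5 counts stand the 13.4% of all genes that fell and the 15.8% that rose. Beside the P56 counts stand 8.07% of all genes that rose and 6.15% that fell.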

How the data were processed

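The authors deposited 1 signal value for each gene and library: 3' tag counts divided by 1 factor per library. The submitters' processing notes name Bowtie2 2.2.5, R 3.4.0 and mm10, while the counting program, annotation and scaling are not given in the sources used here. Dividing by each library's smallest step recovered whole reads for 100% of values (within 0.01 reads). The text gives the deposited values unless reads are named.

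Log2(value + 1) was fitted with limma 3.58.1 (R 4.3.3, trend and robust) with 1 coefficient per stage over all 7 libraries, which leaves 2 residual degrees of freedom. P-values were Benjamini-Hochberg adjusted over the 12964 genes kept by edgeR's low count filter, and a gene was called at an adjusted p under 0.05. edgeR 4.0.16 (quasi-likelihood) and DESeq2 1.42.0 were run on the recovered reads as alternatives. The limma and edgeR fits were run on simulated counts with known changes at P56, set only in genes with higher read counts. That run says nothing about members with few reads. Other alternatives were scaling, pseudocount, filters, leaving out libraries, the replicate number as a block and, added after seeing the data, edgeR without each replicate and removal of the trend on length. Replicate numbers were not taken to pair E18.5 with P56.

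Members named by rule were up to 4 per direction and comparison with the largest called change, no overlap between stages and a mean of at least 100; the highest member of each role and the one with the widest range among those with a mean of at least 20; and 4 families (complex II, subunit c, Ndufa4 with Ndufa4l2, Atp5a1 with Atp5b). From each other list, up to 3 genes with the smallest p at P56 and 2 at E18.5 could be named. One item is not reported here. Members and lists were chosen with earlier results of these data known. Positions and lengths come from GENCODE vM21 (GRCm38, called mm10 by the submitters). Tables and figures used Python 3.11.15, pandas 2.3.3 and matplotlib 3.10.9.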

Additional observations from a re-analysis of the deposited data

How the results depend on the processing

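With 2 residual degrees of freedom the counts of calls moved with the method. The tested set changed as well: 73 members without a filter, 52 with a mean value of at least 10 and 68 in the main fit. With the length trend removed, 11450 genes were tested in place of 12964. The counts over all genes are therefore not shares of 1 total. The 11 falls at E18.5 against the early stages (1736 over all genes) were 6 with DESeq2 (1002), 7 with the length trend removed (1880), 2 without a filter on low values (2267) and 4 with variance estimates that were not robust (1362). The 8 rises at P56 against E18.5 (1046 over all genes) were 5 with DESeq2 (632), 1 with no filter (355) and 0 without robust estimates (609). The 8 calls over any stage (3930 over all genes) were 5 with DESeq2 (2918), 4 with no filter (3899) and 1 without robust estimates (2550). With the replicate number as a block, which leaves 1 residual degree of freedom, the falls at E18.5 numbered 2 (772 over all genes), the rises at P56 0 (479) and the calls over any stage 0 (1561). Replicate differences at E18.5 and P56 had r = 0.01 across 12964 genes, so the numbers mark no shared origin that the data show.

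Counts of 0 moved as follows, with counts over all genes in brackets. Falls at P56 became 2 with DESeq2 (625), edgeR (1023) or the length trend removed (871). Rises at E18.5 became 1 with no filter (1352) or the length trend removed (1751). Rises and falls at E15.5 became 1 each with no filter (931 and 908). Rises at P14 became 1 with DESeq2 (255), 2 with edgeR (410) and 2 with a mean value of at least 10 (357). Leaving out E13.5, limma gave 2 falls at E18.5 (644 over all genes), and leaving out E15.5 9 falls and 2 rises (1701 and 2116), so its range over all libraries was 0 to 9 falls and 0 to 2 rises. Without a replicate of E18.5 or P56 it called 0 of all genes, which says nothing about the members. The edgeR counts that follow rest on the same 1 residual degree of freedom and are a description. In edgeR, without each of those 4 replicates, there were 2 to 16 rises and 0 to 3 falls at P56 (611 to 1474 and 593 to 1324 over all genes), and 8 to 18 falls and 0 to 2 rises at E18.5 (1469 to 1965 and 2073 to 2569). There were 0 to 2 rises and 0 to 2 falls at E15.5 (401 to 848 and 48 to 310), 1 to 12 rises and 0 to 2 falls at P14 (322 to 939 and 237 to 681), and 5 to 29 calls over any stage (3636 to 6872; 21 without E18.5 replicate 2).

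Leaving out 1 library moved median log2 changes at P56 against E18.5 between 0.23 and 0.51 for all members, 0.24 and 0.52 for complex I, -0.24 and 0.19 for complex II, 0.32 and 1.93 for complex III and -0.18 and 0.22 for the ATP synthase. At E18.5 against the early stages they ran from -0.56 to -0.20, -0.62 to -0.30 and -0.27 to 0.04 for all members and complexes I and II, and from -0.64 to -0.31 for the ATP synthase. At P14 against E18.5 complex III ran from 0.22 to 1.36, and at P56 against P14 complex II from -0.03 to 0.19. With the length trend removed the medians were 0.08 (all members), 0.02 (complex I) and -0.28 (ATP synthase) at P56, -0.23 for complex I at E18.5, and -0.08, 0.07, -0.02 and -0.36 (all members, complexes I and II, ATP synthase) at P14. At E18.5 complex I had -0.34 with no filter and -0.33 with a mean value of at least 10, and complex II -0.35 with equal library totals.

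Ratios of sums over E18.5 moved with scaling. With equal library totals the ATP synthase had 1.51 (E13.5) and 1.22 (E15.5) and complex II 1.35 and 1.39. With DESeq2 size factors the ATP synthase had 1.39, 0.913 and 0.769 at E13.5, P14 and P56 and complex II 1.05 at P14, and with TMM the ATP synthase had 0.938 and 0.773 at P14 and P56. Without the highest member, complex I had 1.41 at P56, complex II 0.815 and 0.998 at E15.5 and P14, complex III 1.5, 1.19 and 1.3 at E13.5, P14 and P56, and the ATP synthase 1.48, 1.3 and 0.898 at E13.5, E15.5 and P56. Except for the length trend and the constructions named (fewer libraries or members), the cause was not tested. Members under about 10 reads, such as Ndufb2 and Ndufc2 at E18.5, are limited by depth.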
